A study of Mus musculus with 2 samples.

Results

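The genes described here are Grhl1, Grhl2, Grhl3, Ovol1, Ovol2, Esrp1 and Esrp2, 7 regulators of epithelial identity in the mouse. Regions bound by the transcription factors Etv4 and Etv5 were taken as belonging to a gene when they lay inside the gene or within 50 kb of either end, in the coordinates of mm10 (GRCm38) and the GENCODE annotation. This placed 16 of the 13636 Etv4 regions and 8 of the 8297 Etv5 regions at the 7 genes. The regions came from chromatin immunoprecipitation followed by sequencing (ChIP-seq) in EpRas cells, the H-Ras-transformed derivative of the EpH4 mouse mammary gland epithelial line. Culture was in medium with 4% serum, and TGF-β3 was given at 1 ng/ml for 1.5 h before fixation. One group of DNA was isolated with a rabbit polyclonal antibody to Etv4 and the other with a mouse monoclonal antibody to Etv5. Each antibody has 1 library, and both groups share the transformed line, the serum and the TGF-β3. No input, control antibody, untreated or EpH4 library entered the lists, so a region shows where a list has a call after TGF-β3 and not whether TGF-β3 or Ras changed it. With 1 library per antibody no test between Etv4 and Etv5 was possible. Each count is set beside its share of all genes or of all regions in the list. The lists hold positions and no gene expression levels, so the labelled epithelial cell type was not checked against its markers Krt8, Krt18, Epcam and Cdh1.

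Epithelial cells keep their identity through a small set of regulators that are lost in the epithelial-mesenchymal transition (EMT), which TGF-β induces. Grainyhead-like (Grhl) proteins are transcription factors that activate genes of the cell junctions and of the epidermal barrier. Ovo-like (Ovol) proteins are zinc finger factors that mainly repress, and among their targets are Zeb genes, whose products in turn repress epithelial genes. Epithelial splicing regulatory proteins (Esrp) bind RNA and direct the splicing of transcripts such as those of Fgfr2 and Cd44 towards their epithelial forms. Etv4 and Etv5 are ETS family transcription factors of the Pea3 group, which bind DNA around a GGAA core.

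Ovol1 and Grhl2 had the most regions, and the pair of lists differed from gene to gene. Etv4 regions lay at 5 of the 7 genes (Grhl2, Ovol1, Ovol2, Esrp1 and Esrp2), where 53.4% of the 21938 protein-coding genes had at least 1. Etv5 regions lay at 4 of the 7 (Grhl2, Grhl3, Ovol1 and Esrp1), against 42.7% of protein-coding genes. Regions of both lists were found at 3 genes (Grhl2, Ovol1 and Esrp1; 36.4% of all genes), Etv4 alone at 2 (Ovol2 and Esrp2; 16.9%), Etv5 alone at 1 (Grhl3; 6.23%) and neither at 1 (Grhl1; 40.4%). With 7 genes these shares are coarse, and no test of them was made.

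At the gene starts the calls were on Grhl2, Esrp1 and Esrp2. A region's midpoint lay within 2 kb of the annotated start at 3 of the 7 genes for Etv4 (Grhl2, Esrp1 and Esrp2), against 15.4% of all genes, and at 2 for Etv5 (Grhl2 and Esrp1), against 8.73%. Grhl2 and Esrp1 had both lists there, a state found at 5.07% of protein-coding genes, and the 3 genes with either list compare with 19.1% of all genes. With a limit of 1 kb neither gene had both lists at its start. Within 2 kb, none of the 7 had Etv5 without Etv4, against 3.66% of all genes, and at 1 kb Grhl2 had Etv5 alone. The share of all genes was not counted at 1 kb, so the 1 kb results have no comparison. None of the Ovol starts, nor those of Grhl1 and Grhl3, had a region within 2 kb.

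**Figure D1:**
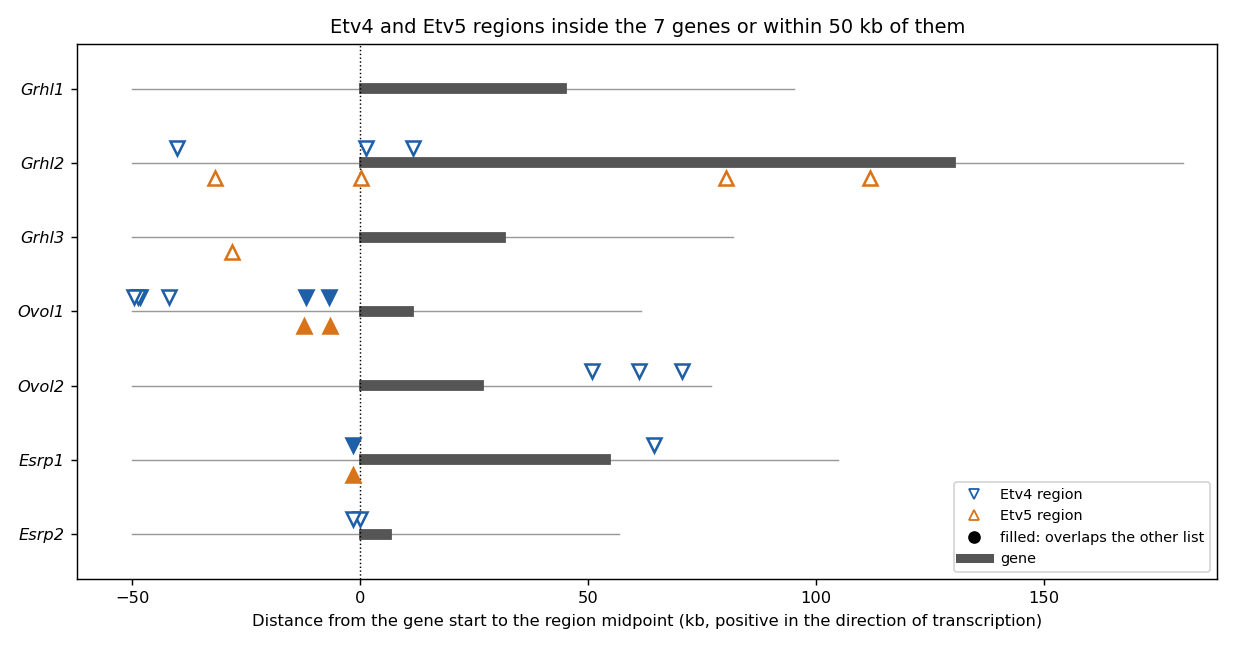
Position of each Etv4 and Etv5 region at the 7 genes. The horizontal axis is the distance of the region's midpoint from the gene start in kb, with upstream to the left. Each gene is a bar with Etv4 triangles above and Etv5 triangles below it, filled where they overlap the other list. Grhl2, Esrp1 and Esrp2 each have at least 1 region within 2 kb of the start, those of Ovol2 lie more than 50 kb beyond it, and Grhl1 has none.

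Within 50 kb, 3 pairs of member regions were shared between the lists. With a minimum of 1 bp, 3 of the 16 Etv4 regions met an Etv5 region (18.8%), where 37.8% of all Etv4 regions did so. Of the 8 Etv5 regions 3 overlapped an Etv4 region (37.5%), where 63.2% of the Etv5 list did. The shares depend on the distance and on the overlap rule. Within 100 kb, 8 of 32 Etv4 and 9 of 14 Etv5 regions overlapped. Within 50 kb, 1 of the 16 and 1 of the 8 did so at 50% reciprocal overlap. At 50 kb the shared positions were 2 at Ovol1 and 1 at Esrp1. At Grhl2, the gene with the most Etv5 regions of the 7, no region overlapped the other list.

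Each region carries a number in the deposited lists, and every number from 1 to the list's size occurs once. The criterion behind it is not given in the sources used here. Low numbers overlapped more often: 97.5% of the Etv5 regions with the first 10% of numbers overlapped an Etv4 region, and 77.7% of such Etv4 regions overlapped an Etv5 region. In the first 50% of numbers 54.7% of Etv4 and 80.1% of Etv5 regions overlapped, and in the last 50% the shares were 20.8% and 46.2%. Most member regions had high numbers, with 11 of the 16 Etv4 regions and 6 of the 8 Etv5 regions in the last 50%. Their median position was 58.3% of the way down the Etv4 list and 74.6% down the Etv5 list. At the end of each list is a stretch of numbers in which length never increases, from 597 to 299 bp over the last 1305 Etv4 regions and from 592 to 299 bp over the last 1046 Etv5 regions. In these stretches 12.9% of Etv4 and 36.8% of Etv5 regions overlapped the other list. The stretches make up 9.57% of the Etv4 and 12.6% of the Etv5 list, and they hold 3 of the 16 and 3 of the 8 member regions.

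**Figure D2:**
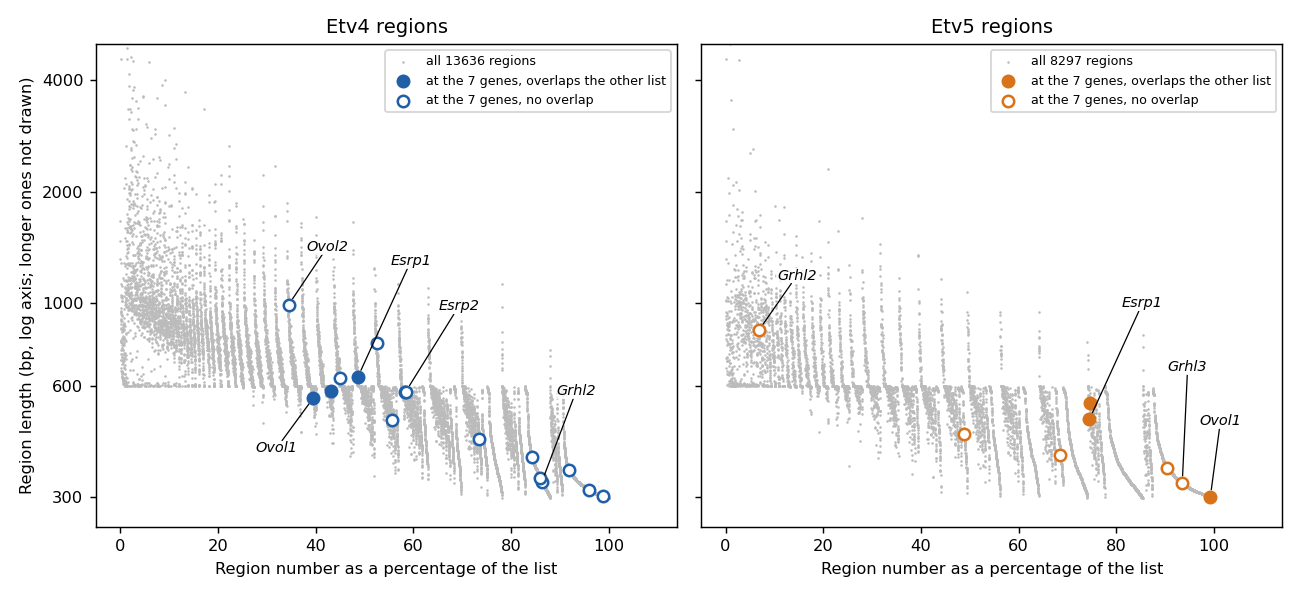
Region number, as a percent of the list, against region length in bp on a log axis, for Etv4 and Etv5. Small points are the regions of the list, without the few longer than the axis, and circles are the 16 Etv4 and 8 Etv5 member regions, filled where they overlap the other list. The Etv5 region across the Grhl2 start sits at the low-number, long end, and most other member regions sit to the right.

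Grhl2, which activates Cdh1 and claudin genes and opposes Zeb1, lies on the plus strand at chr15:37233036-37363569 and spans 130.5 kb. It had 3 Etv4 and 4 Etv5 regions. At least 4 Etv5 regions were found at 4.82% of protein-coding genes, and 3 or more Etv4 regions at 20.7%. The gene's length bears on these counts, since a longer gene takes in more sequence. Per 100 kb of the gene with its flanks there were 1.30 Etv4 and 1.74 Etv5 regions, beside 0.877 and 0.567 over the whole of chromosome 15.

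The Etv5 region at the Grhl2 start, chr15:37232750-37233596, was 847 bp long and covered the annotated start, with its midpoint in exon 1. The midpoint lay 137 bp inside the gene, and 2.68% of protein-coding genes had an Etv5 region nearer to their start. It was longer than 91.3% of the Etv5 list, and its number, 568, put it 6.85% of the way down the list, the lowest of all 24 member regions. It did not overlap an Etv4 region. This was uncommon for such a number: of the 829 Etv5 regions with the first 10% of numbers, 21 did not overlap an Etv4 region, and 13 of those 21 lay within 2 kb of a gene start. The nearest Etv4 region lay 520 bp past the end of this Etv5 region, further into the gene. Of the 21, 3 had an Etv4 region less than 1 kb away. A start of Gm16136, an annotated gene that overlaps Grhl2, lies 14 bp from the midpoint. The region therefore cannot be assigned to one of the 2 starts by position.

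The region held 2 copies of the E-box CACCTG, which reads as CAGGTG on the minus strand and to which Zeb and Snail repressors bind. One of them lies at chr15:37233308-37233313, 137 bp after the midpoint, and the other 198 bp before it. The AACTGGTT at chr15:37233462-37233469, which reads as the wider Grainyhead pattern AACCNGTT on the minus strand, lies 292 bp from the midpoint and so outside the central 500 bp. In the central 500 bp, a search that does not count this match, the wider pattern was in 4.15% of all Etv5 regions. It was in 3.63% of spaced windows of that size. The region held no TGACTCA and neither of the ETS octamers CAGGAAGT and CCGGAAGT. Only 0.739% of its 36-base stretches are found at a further place in the genome.

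The Etv4 region beside the Grhl2 start, chr15:37234117-37234447, was 331 bp long and lay in intron 1, with its midpoint 1246 bp into the gene. Its number, 11769, put it 86.3% of the way down the list. A start of Gm16136 lay nearer to the region's midpoint than the Grhl2 start, at 973 bp. The GC content of the central 500 bp was 74.2%, higher than in 99.9% of all Etv4 regions, with 12.0 CpG per 100 bp. The part of GC content in the call was not tested.

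Inside Grhl2 there were 2 further Etv5 regions and 1 further Etv4 region. The Etv5 region chr15:37313034-37313478 lay in intron 8, 80.2 kb from the start, and chr15:37344672-37345031 lay in intron 13, 111.8 kb from the start. The Etv4 region chr15:37244401-37244715 lay in intron 1, 11.5 kb from the start and 1396 bp from the start of Gm16137. Upstream, an Etv5 region at chr15:37201044-37201433 lay 31.8 kb before the start, and an Etv4 region at chr15:37192811-37193112 lay 40.1 kb before it. The last of these was 302 bp long with number 13477, 98.8% of the way down the Etv4 list.

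Of these Grhl2 regions, 3 held the AP-1 heptamer TGACTCA, the site of Fos and Jun dimers, and 1 of the 3 held it as a pair. The heptamer was in 37.4% of all Etv4 and 35.8% of all Etv5 regions, so 3 of the gene's 7 regions is near the share in the lists. They are shown because they hold the commonest of the longer patterns in both lists. Capitals mark TGACTCA and, in the intron 1 sequence, also the loose ETS letters CGGAAA. Sequences throughout are from the plus strand of GRCm38.
Grhl2, Etv4 region in intron 1, chr15:37244502-37244568: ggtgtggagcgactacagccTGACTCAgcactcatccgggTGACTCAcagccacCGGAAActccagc
Grhl2, Etv4 region upstream, chr15:37192965-37193011: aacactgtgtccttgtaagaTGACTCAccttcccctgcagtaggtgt
Grhl2, Etv5 region in intron 8, chr15:37313092-37313138: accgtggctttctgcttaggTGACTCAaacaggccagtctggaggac
In intron 1 the 2 heptamers lay 33 and 13 bp before the midpoint, in the upstream region 26 bp after it, and in intron 8 141 bp before it. No Grhl2 region held an ETS octamer in its central 500 bp.

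**Figure D3:**
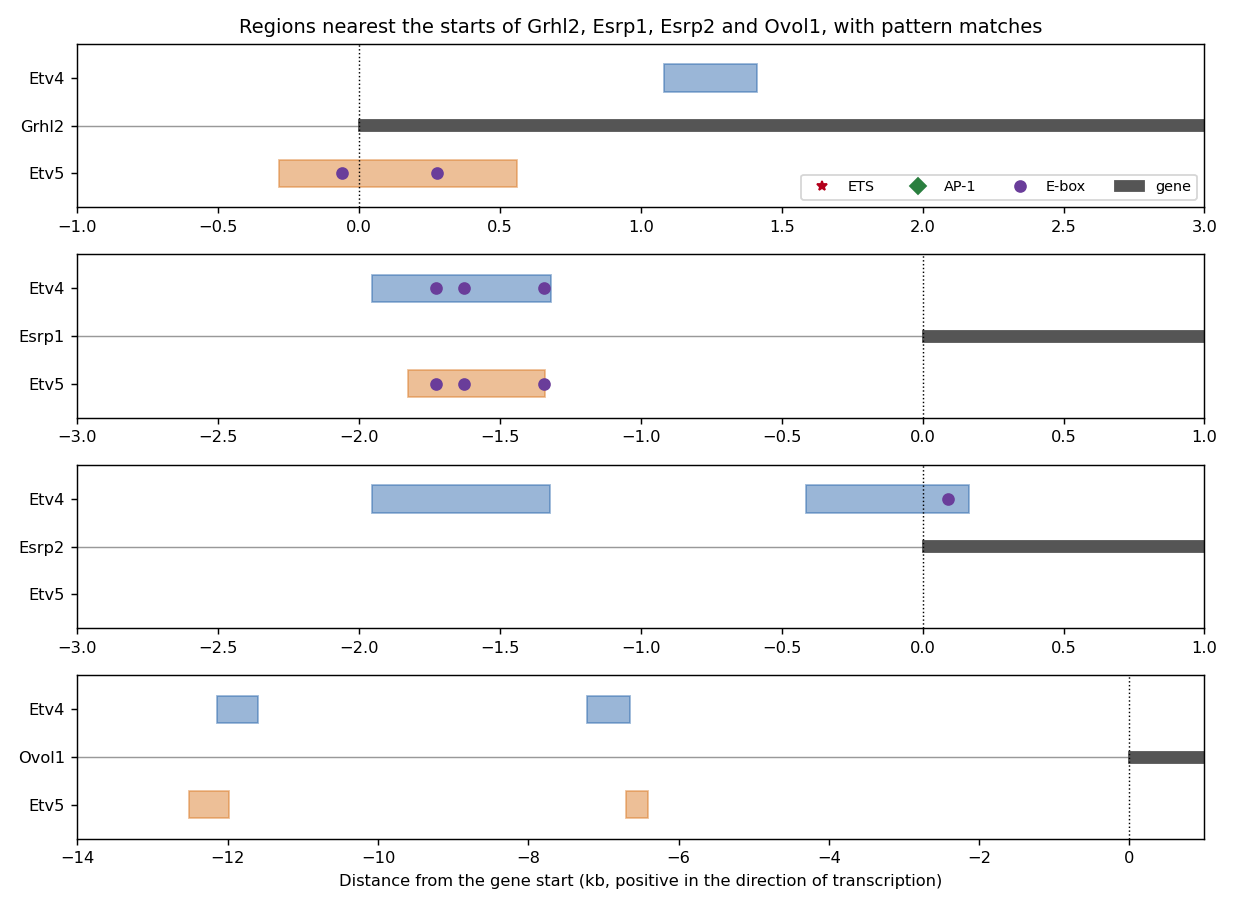
Regions around the starts of Grhl2, Esrp1, Esrp2 and Ovol1. The horizontal axis is the distance from the gene start in kb, coloured bars are Etv4 and Etv5 regions to scale, dark bars are the genes, and circles are E-box matches (no ETS octamer or AP-1 heptamer lies in these regions). At Grhl2 the Etv5 bar crosses the start and the Etv4 bar lies 520 bp past the end of the Etv5 bar. At Esrp1 the Etv5 bar lies within the Etv4 bar, and Esrp2 has Etv4 bars only.

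Grhl3, which acts in the epidermal barrier and neural tube closure, lies on the minus strand at chr4:135541888-135573630. It had 1 Etv5 region and no Etv4 region. The Etv5 region, chr4:135601628-135601955, was intergenic and 28.2 kb upstream, 328 bp long, with number 7757, 93.5% of the way down the list. An Etv5 region lay nearer the start at 25.5% of protein-coding genes. The nearest Etv4 region lay 167.5 kb from the Grhl3 start and 7.92 kb from that of Ncmap, and 72.1% of protein-coding genes had one nearer. The Etv5 region held TGACTCA 80 bp after its midpoint and, 119 bp before it, AACCACA, which is the RUNX pattern TGTGGTT on the minus strand. Capitals mark the AP-1 letters.
Grhl3, Etv5 region upstream, chr4:135601849-135601895: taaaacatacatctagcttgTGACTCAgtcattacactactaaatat
These are the letters seen in the Grhl2 regions, with other bases on either side.

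Grhl1, a Grainyhead-like factor of desmosomal and hair follicle genes, lies on the plus strand at chr12:24572283-24617391. It was the only one of the 7 without a region of either list within 50 kb. The nearest Etv4 region, chr12:24473068-24473599, and the nearest Etv5 region, chr12:24472924-24473458, overlapped each other and lay 98.9 and 99.1 kb upstream. The protein-coding start nearest to both was that of Taf1b, 25.0 kb from the Etv4 midpoint. A region lay nearer the start than this at 60.7% of protein-coding genes for Etv4 and at 51.4% for Etv5, so Grhl1 was close to the middle of all genes.

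Ovol1, a repressor of Zeb1 and of cell cycle genes in epidermis, lies on the minus strand at chr19:5549136-5560646. It had 6 Etv4 and 2 Etv5 regions, all upstream and none inside the gene. At least 6 Etv4 regions were found at 6.09% of protein-coding genes, and 2 or more Etv5 regions at 19.6%. The gene is short and its flanks hold 5 other protein-coding genes, Snx32, 1700020D05Rik, Ap5b1, Rnaseh2c and Kat5. All 8 regions lay nearer to the start of another protein-coding gene than to that of Ovol1. The Etv4 density was 5.38 per 100 kb in the Ovol1 window against 0.925 on chromosome 19, and the Etv5 density 1.79 against 0.633.

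Both Etv5 regions at Ovol1 overlapped an Etv4 region. Nearest the gene, Etv4 at chr19:5567286-5567864 and Etv5 at chr19:5567047-5567347 had midpoints 6929 and 6551 bp before the start. They shared 62 bp, which is 10.7% of the Etv4 and 20.6% of the Etv5 region. The start of Ap5b1, a subunit of an adaptor protein complex, lies 450 bp from the Etv4 and 828 bp from the Etv5 midpoint. The Etv5 region was among the last of its list, with number 8234, and the GC content of the Etv4 region was 70.2%, higher than in 98.5% of the list. Further upstream, Etv4 at chr19:5572238-5572792 and Etv5 at chr19:5572627-5573164 had midpoints 11869 and 12250 bp before the start and shared 166 bp, or 29.9% and 30.9%. In this Etv4 region 19.6% of the 36-base stretches have another copy elsewhere, and reads of that length cannot be placed there by sequence alone.

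The shared bases are shown because they are the positions called in both libraries. Neither stretch held any of the searched patterns, so neither has capitals.
Ovol1, nearer shared stretch, chr19:5567286-5567347: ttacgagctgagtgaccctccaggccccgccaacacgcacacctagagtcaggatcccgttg
Ovol1, farther shared stretch, chr19:5572627-5572792: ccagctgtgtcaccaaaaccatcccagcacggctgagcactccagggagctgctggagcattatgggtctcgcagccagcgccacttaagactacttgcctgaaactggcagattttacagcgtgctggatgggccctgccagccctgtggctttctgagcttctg

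The other 4 Etv4 regions at Ovol1 lay 41.9 to 49.6 kb upstream at the starts of Rnaseh2c, a subunit of ribonuclease H2, and Kat5, a histone acetyltransferase. The midpoint of chr19:5602317-5602702 lay 100 bp from the Rnaseh2c start. The regions chr19:5608666-5609004, chr19:5609051-5609627 and chr19:5609844-5610627 lay 565, 368 and 1 bp from a Kat5 start. The 2 of these nearest to a Kat5 start held the only ETS octamers among the 24 member regions. They are shown for that reason, with the ETS and AP-1 letters in capitals.
Kat5, Etv4 region inside the gene, chr19:5609258-5609358: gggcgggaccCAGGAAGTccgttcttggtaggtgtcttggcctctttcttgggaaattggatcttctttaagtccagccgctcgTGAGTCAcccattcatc
Kat5, Etv4 region at the start, chr19:5610064-5610091: gggagacgtcACTTCCGGagctgagtgc
In the first, CAGGAAGT lies 68 bp before the midpoint and TGAGTCA, the AP-1 heptamer on the minus strand, 6 bp after it. In the second, ACTTCCGG is CCGGAAGT on the minus strand. It occurs at chr19:5610049-5610056 and again at chr19:5610074-5610081, 184 and 159 bp before the midpoint. By the distance rule these octamers count for Ovol1, but they lie more than 48 kb from its start.

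Ovol2, which maintains epithelial character in the mammary gland and skin, lies on the minus strand at chr2:144305175-144332146. It had 3 Etv4 regions and no Etv5 region. All 3 lay beyond the end of the gene, 50.9, 61.2 and 70.6 kb from its start. The one at chr2:144270478-144271468 was 991 bp long, longer than 90.2% of the list, and its midpoint was 32 bp from the start of Mgme1, a mitochondrial exonuclease gene. The one at chr2:144261330-144261685 lay 746 bp from the start of Snx5 and 33 bp from that of Gm11688. The one at chr2:144280963-144281447 lay in an exon of Mgme1. The nearest Etv5 region was 166.6 kb from the Ovol2 start, and 64.0% of protein-coding genes had one nearer.

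The Mgme1 exon region held the only Grainyhead palindrome among the member regions. It is shown because Ovol2 and the Grhl genes are regulators of the same epithelial program. Capitals mark AACCGGTT, 180 bp from the midpoint.
Ovol2, Etv4 region in Mgme1, chr2:144281012-144281039: acttaggtcaAACCGGTTcacgctgcct
This palindrome was in 0.220% of all Etv4 regions and in 0.0905% of spaced windows outside the regions. Among 16 member regions and several patterns, 1 match does not set the members apart.

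Esrp1 and Esrp2 had regions at their starts, and they differed in which list was present. Esrp1 lies on the minus strand at chr4:11331933-11386783 and had 2 Etv4 regions and 1 Etv5 region. The Etv4 region chr4:11388104-11388737 and the Etv5 region chr4:11388124-11388610 had midpoints 1638 and 1584 bp before the start. The Etv5 region lay wholly within the Etv4 region and covered 76.8% of it. This was the closest match between the lists at any of the 7 genes. Their numbers, 6633 and 6180, were 48.6% and 74.5% of the way down the lists, and no other annotated start lay nearer to either midpoint than that of Esrp1. The other Etv4 region, chr4:11322239-11322670, lay 9.26 kb beyond the end of the gene and 318 bp from the start of Dpy19l4.

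Part of the shared Esrp1 stretch is shown because it is the one position near a member start that both libraries called. Capitals mark the E-box CACCTG and the loose ETS letters CGGAAG.
Esrp1, shared stretch before the start, chr4:11388371-11388610: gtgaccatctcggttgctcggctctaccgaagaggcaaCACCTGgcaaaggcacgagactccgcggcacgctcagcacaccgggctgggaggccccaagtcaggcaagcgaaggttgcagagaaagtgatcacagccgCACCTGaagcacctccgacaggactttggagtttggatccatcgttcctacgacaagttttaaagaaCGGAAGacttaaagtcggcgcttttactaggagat
Another E-box, CAGGTG, opens the shared stretch at chr4:11388124-11388129. The Etv5 window of 500 bp held all 3 E-boxes and the Etv4 window 2 of them, and neither held an ETS octamer or TGACTCA.

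Esrp2 lies on the minus strand at chr8:106130319-106136974 and spans 6.66 kb. It had 2 Etv4 regions and no Etv5 region. The first, chr8:106136811-106137388, was 578 bp long and covered the annotated start, with its midpoint 126 bp before it. An Etv4 region lay nearer at 5.50% of protein-coding genes, and Etv4 regions covered the start at 9.91% of genes, among the 7 at Esrp2 alone. An Etv5 region covered the start at 4.35% of genes, among the 7 at Grhl2 alone. The midpoint of the first Esrp2 region was 35 bp from the start of 1810019D21Rik, and the region covers both annotated starts. The second, chr8:106138298-106138927, was 630 bp long. It lay 1639 bp before the Esrp2 start and nearer, at 1548 bp, to a start of 1810019D21Rik. The nearest Etv5 region, at chr8:106337965-106338467 by the start of Smpd3, was 201.2 kb away, and 68.6% of protein-coding genes had one nearer.

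The bases before the Esrp2 start are shown because this Etv4 region covers the start. Of the 240 bases, 150 are in an annotated exon of 1810019D21Rik. Capitals mark CTTCCT, the loose ETS letters AGGAAG on the minus strand.
Esrp2, before the start, chr8:106136975-106137214: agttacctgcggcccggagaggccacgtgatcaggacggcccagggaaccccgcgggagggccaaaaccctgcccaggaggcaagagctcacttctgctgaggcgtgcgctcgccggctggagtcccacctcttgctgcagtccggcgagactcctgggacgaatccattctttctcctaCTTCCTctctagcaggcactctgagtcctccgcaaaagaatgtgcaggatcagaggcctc
The region also held CACCTG at chr8:106136880-106136885, inside the gene. It held no ETS octamer and no AP-1 heptamer.

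Across the 7 genes, the levels of calling can be ordered. By Etv4 the order was Ovol1 with 6 regions, Grhl2 and Ovol2 with 3 each, Esrp1 and Esrp2 with 2 each, and Grhl1 and Grhl3 with none. By Etv5 it was Grhl2 with 4, Ovol1 with 2, Grhl3 and Esrp1 with 1 each, and Grhl1, Ovol2 and Esrp2 with none. Protein-coding genes had a mean of 1.48 Etv4 and 0.840 Etv5 regions, and medians of 1 and 0. With 1 library each, neighbours in these orders cannot be told apart. When each region was given only to the gene with the nearest protein-coding start, 6 of the 16 Etv4 and 6 of the 8 Etv5 regions stayed with the members. The Etv4 regions were then 3 at Grhl2, 2 at Esrp2 and 1 at Esrp1, so 3 of 7 genes had one, against 27.2% of all genes. The Etv5 regions were 4 at Grhl2, 1 at Grhl3 and 1 at Esrp1, again 3 of 7 genes, against 19.6%. Ovol1 and Ovol2 had none by this rule.

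**Figure D4:**
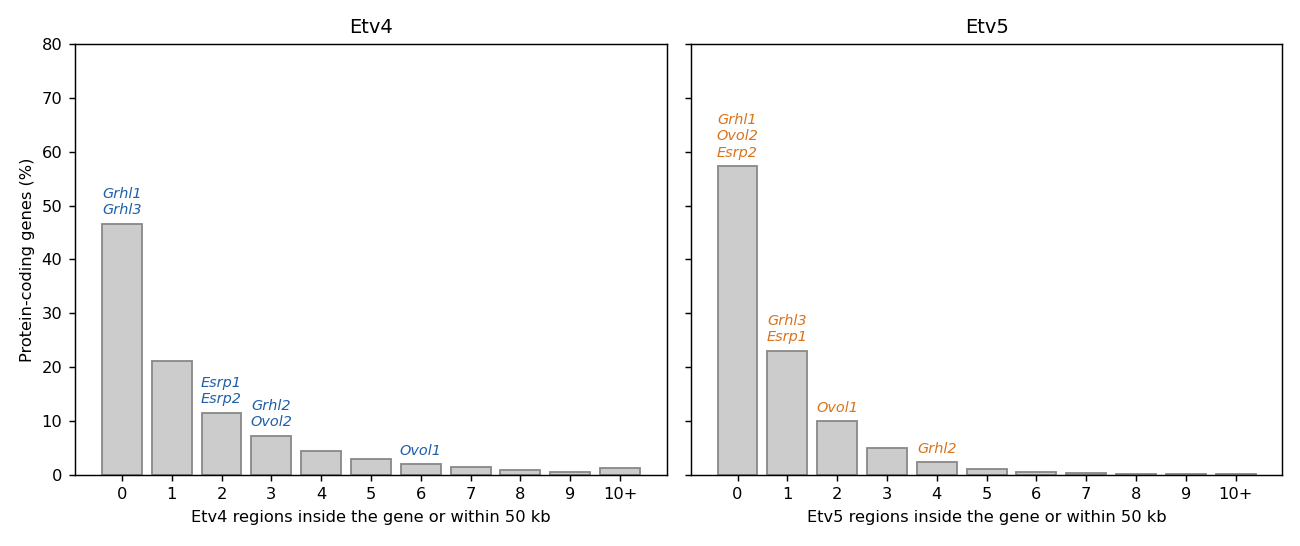
Percent of protein-coding genes (vertical axis) by number of Etv4 or Etv5 regions inside the gene or within 50 kb (horizontal axis), with the 7 genes named above the bars they belong to. Ovol1 stands at 6 Etv4 regions and Grhl2 at 4 Etv5 regions, in bars of 2.01% and 2.29% of genes.

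By feature, 13 of the 16 Etv4 regions had their midpoint within 2 kb of an annotated start of any gene, where 36.5% of the Etv4 list did. For Etv5 the number was 3 of 8, beside 33.1% of that list. The 13 Etv4 regions include those at the starts of Rnaseh2c, Kat5, Mgme1, Snx5 and Dpy19l4, and 4 of the 13 were within 2 kb of a member start. Counting every region that shares a base with the gene, 3 Etv4 regions lay in member genes, 2 at Grhl2 and the one across the Esrp2 start, and 3 Etv5 regions, all at Grhl2. By the same count an Etv4 region lay in the gene at 23.0% of all protein-coding genes and an Etv5 region at 14.7%. The median length was 520 bp for the member Etv4 regions (302 to 991 bp) and 417.5 bp for Etv5 (301 to 847 bp), beside 589 and 532 bp in the whole lists.

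In sequence, the member regions had a higher median GC content than the lists, and their shares of the searched patterns carried wide intervals. The central 500 bp had a median GC content of 56.8% for the 16 Etv4 and 54.3% for the 8 Etv5 regions, against 49.6% and 48.6% over all regions and 41.4% in 131438 windows spaced through the rest of the genome. All RefSeq promoters of 300 bp had a median of 52.7%. Of the 16 Etv4 regions 13 lay within 2 kb of a start, and no set of regions matched for this was compared. The ETS octamers were in 2 of 16 Etv4 regions (12.5%, exact 95% interval 1.55 to 38.3%), beside 10.2% of the Etv4 list and 3.53% of the windows. They were in none of the 8 Etv5 regions, which allows a share of up to 36.9%, beside 7.93% of that list. The AP-1 heptamer was in 3 Etv4 regions (18.8%, 4.05 to 45.6%) and 2 Etv5 regions (25.0%, 3.19 to 65.1%), beside 37.4% and 35.8% of the lists and 7.53% of the windows. All of these intervals take in the share of the whole list.

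The E-box was in 7 Etv4 regions (43.8%, 19.8 to 70.1%) and 3 Etv5 regions (37.5%, 8.52 to 75.5%), against 30.2% and 29.0% of the lists and 26.3% of windows. The RUNX letters were in 1 region of each list, against 24.7% and 23.9%. The letters CCGTTA, bound by Ovol factors, were in no central window, and they were in 4.15% of all Etv4 and 3.69% of all Etv5 regions. The loose ETS letters, GGAA after A or C and before A or G, were in 11 Etv4 and 6 Etv5 regions (68.8% and 75.0%), against 81.5% and 79.1% of the lists and 73.4% of spaced windows. The intervals cover counting error only, and regions at 1 gene are not independent. A match is a run of letters, not a shown binding site.

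**Figure D5:**
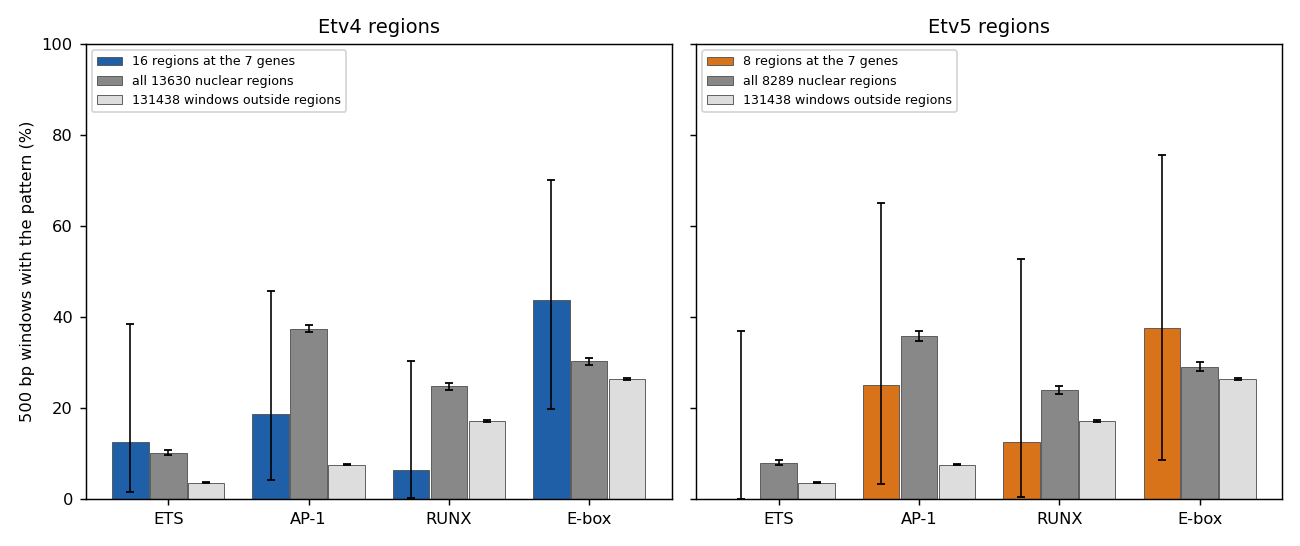
Percent of 500 bp windows with a match to each sequence pattern (vertical axis), as bars for the member regions, all nuclear regions of the list and spaced windows outside the regions, with exact 95% binomial intervals as error bars. The member intervals are wide, from 1.55 to 38.3% for ETS in the 16 Etv4 regions, and the whole-list values for ETS and AP-1 lie within them.

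The partners and targets of these regulators were a list of 22 genes taken from textbook knowledge with earlier results of these data known, so its counts are not independent evidence. Etv4 regions lay at 19 of the 22 and Etv5 regions at 16, all 16 with Etv4 too, beside 53.4% and 42.7% of all protein-coding genes. At their starts there were Etv4 regions for 6 and Etv5 regions for 3, beside 15.4% and 8.73% of all protein-coding genes. Among the 5 EMT transcription factors (Zeb1, Zeb2, Snai1, Snai2 and Twist1), Etv4 regions were at 4 and Etv5 regions at 3. Snai1, encoding Snail, had 16 Etv4 and 6 Etv5 regions, where 10 or more Etv4 regions were found at 1.25% of protein-coding genes. Zeb1 had 1 of each, Zeb2 had 4 and 1, and Twist1 had none. Snai2 had 1 Etv4 region, at its start, and no Etv5 region. All 7 Grainyhead target genes had an Etv4 region and 6 an Etv5 region. Cdh1, encoding E-cadherin, had 3 of each, and Cldn4, a tight junction claudin, had 5 Etv4 and 1 Etv5, with both lists at its start. Epcam had 2 Etv4 and no Etv5 regions. Of the 6 Esrp-regulated transcripts, 5 had regions of both lists. Cd44 had 9 Etv4 and 4 Etv5 regions and Fgfr2 21 and 12, though the Fgfr2 gene model is 2960.9 kb long and so takes in much sequence, and Arhgef11 had none. The relatives of the Grainyhead family, Tfcp2, Tfcp2l1 and Ubp1, had an Etv4 region at 2 of 3 genes and Etv5 at 1. Ovol3 had 3 Etv4 and 4 Etv5 regions. Genes differ in length and in crowding, so these counts are descriptions.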

How the data were processed

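Etv4 and Etv5 ChIP-seq in TGF-β3-treated EpRas cells gave 2 libraries, 1 per antibody and 0 replicates, grouped by the antibody in the labels. The deposited lists are BED tables of 6 columns in mm10. Regions were called by the authors separately for each library with the 1-sample mode of CisGenome (300 bp window, p threshold 0.1), without a control. The submitters' processing notes name Bowtie, with no version given. The deposited score column holds 1000 in every row, so it carries no height. Column 4 is a region number whose criterion is not given in the sources used here. Read counts and heights are not in the region lists, so the depth is unknown and no precision per region can be given.

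Regions were assigned to genes of GENCODE vM21 with Python 3.11.15, pandas 2.3.3 and numpy 2.4.6, taking every region inside a gene or within 50 kb. Regions overlapped when sharing at least 1 bp, and distances ran from the midpoint to the gene's annotated start. Shortest regions measure 299 bp by end minus start, so lengths are uncertain by 1 bp. Sequence of 500 bp around each midpoint was read from GRCm38 with pysam 0.24.0 and scanned on either strand. The patterns were ETS CAGGAAGT or CCGGAAGT, AP-1 TGACTCA, RUNX TGTGGTT or TGTGGTC, Grainyhead AACCGGTT and AACCNGTT, Ovol CCGTTA, and E-box CAGGTG. Loose ETS letters overlap the octamers, and AACCNGTT takes in AACCGGTT. Windows for comparison were spaced every 20 kb outside all regions. Multicopy shares count 36-base sequences, the read length after cutting stated for the accessibility libraries. Shares have exact Clopper-Pearson 95% intervals (scipy 1.17.1). RefSeq promoters (GRCm38) matched 3 members, none with a region at its start, so none is shown, and 1 sequence at a member start is not reported here. All 7 members are named, with the protein-coding gene whose start lies nearest to each region. Counting scripts were tested on simulated data. The members, the list of related genes and the patterns were chosen with earlier results of these data known. Alternatives changed the distance, the overlap rule, the assignment rule, the list size, the window and the patterns.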

Additional observations from a re-analysis of the deposited data

How the results depend on the processing

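The counts rest on a distance rule, on lists whose numbers have no stated criterion, and on 1 library per antibody. Of 68 alternative values, 40 moved by more than 1.5 times. Etv4 regions at the members (16) became 7 within 10 kb, 32 within 100 kb, 6 by nearest start, 4 in the longer 50%, 5 in the first 50% of numbers and 8 when the Etv4 list was cut to the size of the Etv5 list. Etv5 regions (8) became 5 within 10 kb, 14 within 100 kb, and 2 in each of the 50% lists. Overlapping Etv4 regions (3) became 8 within 100 kb, 1 by nearest start, 1 at 50% reciprocal overlap, 1 with midpoints within 250 bp, and 0 in each of the 50% lists. Overlapping Etv5 regions (3) became 9, 1, 1, 1, 0 and 0 in the same order. Members with an Etv4 region (5) became 3 by nearest start. Members with an Etv5 region (4) became 2 in the longer 50% and 1 in the first 50%. Members with Etv4 at the start (3) became 1 at 1 kb. Members with Etv5 there (2) became 1 in each of the 50% lists and 1 at 1 kb. ETS matches in Etv4 regions (2) became 1 in the longer 50%, 0 in the first 50%, 1 in 200 bp windows, 1 with CCGGAAGT only and 11 with the loose letters, and those in Etv5 regions (0) became 6 with the loose letters. AP-1 matches in Etv4 regions (3) became 0 in each of the 50% lists. Those in Etv5 regions (2) became 0 in the longer 50%, 1 in the first 50% and 1 in 200 bp windows. The other 28 values stayed within 1.5 times. No paired analysis was possible because there is 1 library for each antibody, with no shared replicate. The depth is unknown and no control was used in the calling, so a gene without a region was not shown to lack binding.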

Other observations

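Within 100 kb of the genes, Ovol1 had 13 Etv4 and 4 Etv5 regions, Esrp1 had 5 and 2, Grhl2 had 4 and 6, Grhl1 had 3 and 1, Ovol2 had 4 and 0, Esrp2 had 3 and 0, and Grhl3 had 0 and 1. Grhl3 thus remained without an Etv4 region at this distance, and Ovol2 and Esrp2 without an Etv5 region. The share of all protein-coding genes with a region within 100 kb was not counted, so these numbers have no comparison.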
